A study of Arabidopsis thaliana with 6 samples.

Results

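The small heat shock protein genes were followed as a family of 10 loci, chosen by locus ID from the 32834 loci of the count table, and all 10 were found there. By compartment they were the cytosolic class I genes HSP17.6C (AT1G53540), HSP17.4 (AT3G46230), HSP18.2 (AT5G59720) and HSP17.6B (AT2G29500), and the cytosolic class II genes HSP17.6A (AT5G12030) and HSP17.6II (AT5G12020). The mitochondrial genes were HSP23.6 (AT4G25200) and HSP23.5 (AT5G51440), the plastid gene was HSP21 (AT4G27670), and the gene for the endoplasmic reticulum was HSP22 (AT4G10250). The RNA came from whole Arabidopsis thaliana Col-0 seedlings aged 7 days, in 3 groups of 2 libraries. MIF_1 and MIF_3 were transgenic seedlings that carried Myc-tagged MIF under a dexamethasone-switched promoter in the vector pTA7002, and the third group was wild type (WT). All 3 groups grew on 1/2 MS medium with 1% sucrose and 10 µM dexamethasone, after 3 days of cold in the dark, with 16 h of light a day at 120 µmol m-2 s-1. Thus WT had the inducer but no transgene, and seedlings with the vector alone were not analysed here. The series text ties the work to MIF expression and to MORF2, a plastid RNA editing factor. The sources used here do not give the locus of MIF or say what the numbers 1 and 3 stand for, and nothing says whether replicates were separate cultures. The p-values therefore measure the spread between these samples, which may be technical.

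Small heat shock proteins are chaperones built around an alpha-crystallin domain. They bind unfolding proteins without using ATP and pass them on to the ATP-driven HSP70 and HSP101 machines. Plants make separate forms for the cytosol and for the organelles, all from nuclear genes. Their transcripts are scarce in unstressed leaves and rise steeply on heating, when heat shock transcription factors bind heat shock elements, repeats of the letters GAA and TTC, near the start of the gene. Several are also made in maturing seeds without heat.

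In these seedlings, grown at 21 °C by day and 19 °C by night, the 10 genes were scarce in WT and higher in both transgenic sets, with 1 exception. A further 7 loci described as HSP20-like chaperones, given below, are not among the 10 and did not show one direction. The summed level of the 10 genes, in CPM (read counts scaled to library size) per kilobase of annotated exons, was 68.5 and 74.8 in MIF_1, and 32.6 and 86.1 in MIF_3, against 19.6 and 20.3 in WT. In each of 9 genes both libraries of MIF_1, and both of MIF_3, lay above both WT libraries. HSP18.2 was the exception and lay below both WT libraries in all 4 transgenic libraries. Among the genes tested, both MIF_1 libraries lay above both WT libraries in 30.5% and both MIF_3 libraries in 28.6%. All 4 transgenic libraries lay above both WT libraries in 18.9%. HSP17.6A, HSP17.4, HSP23.6 and HSP22 reached the low-count minimum of the test only through the transgenic libraries, and HSP21 did not reach it. For these genes the shares among tested genes are therefore not a like comparison. For scale, the median gene tested had 15.4 CPM in MIF_1, 15.3 in MIF_3 and 15.3 in WT. Only HSP23.5 in MIF_1 replicate 1 and HSP17.6B in MIF_3 replicate 2 lay above that median.

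The 6 libraries held from 18.3 M to 24.7 M counts, and 1 count stood for 0.0395 to 0.0603 CPM, which was scaled with TMM factors. WT replicate 2 held more counts of plastid-encoded loci, 0.132% against 0.0203% to 0.0273% in the other libraries, and more of nuclear rRNA loci, 1.04% against 0.298% to 0.468%. Replicates differed beyond counting noise in every group and most in MIF_3, where chi-square over its degrees of freedom was 24.3, against 9.10 in MIF_1 and 11.3 in WT. As for whole seedlings, RNA of leaf and root markers was present in every library. The 6 leaf markers summed to 37493 and 40040.0 CPM in MIF_1, and 42405 and 52031 in MIF_3, against 61929 and 63704 in WT. The 6 root markers summed to between 1643 and 2313 CPM over all libraries, almost all of it from PYK10.

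In TAIR10.1 (RefSeq) the class I genes lie at chr1:19980299-19981199 (HSP17.6C), chr3:16984118-16984867 (HSP17.4), chr5:24062323-24063300 (HSP18.2) and chr2:12633065-12634120 (HSP17.6B), and the class II genes at chr5:3883957-3884838 (HSP17.6A) and chr5:3882231-3883111 (HSP17.6II). The organelle genes lie at chr4:12916926-12918110 (HSP23.6), chr5:20891163-20892416 (HSP23.5), chr4:13818825-13819971 (HSP21) and chr4:6370338-6371372 (HSP22). HSP23.6, HSP23.5 and HSP21 have 2 exons and the others 1.

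The stretch before the gene start shows whether the letters of a heat shock element lie near it. The 250 bases before the annotated start of each gene were searched in TAIR10.1 (RefSeq) for the 8-base forms GAANNTTC and TTCNNGAA. Each form is its own reverse complement, so both strands are covered, and both overlap by 3 bases where the 13-base element stands. Stretches of 120 bases up to the base before the start are printed 5′ to 3′ along each gene's strand for 5 genes, to set genes with a match beside HSP18.2, the gene that lay below WT. Capitals mark the matched letters.
HSP17.6C (chr1:19980179-19980298, plus strand): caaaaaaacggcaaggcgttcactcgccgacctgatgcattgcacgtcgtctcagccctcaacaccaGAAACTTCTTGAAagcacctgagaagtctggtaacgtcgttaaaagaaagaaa
HSP17.4 (chr3:16984868-16984987, minus strand): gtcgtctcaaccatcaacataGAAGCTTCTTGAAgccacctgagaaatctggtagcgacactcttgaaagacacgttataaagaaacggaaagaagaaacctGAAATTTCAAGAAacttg
HSP23.5 (chr5:20891043-20891162, plus strand): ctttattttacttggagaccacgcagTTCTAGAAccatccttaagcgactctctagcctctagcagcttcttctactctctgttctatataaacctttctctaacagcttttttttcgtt
HSP21 (chr4:13819972-13820091, minus strand): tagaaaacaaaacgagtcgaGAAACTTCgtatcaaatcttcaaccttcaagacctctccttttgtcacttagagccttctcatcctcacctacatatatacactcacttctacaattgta
HSP18.2 (chr5:24062203-24062322, plus strand): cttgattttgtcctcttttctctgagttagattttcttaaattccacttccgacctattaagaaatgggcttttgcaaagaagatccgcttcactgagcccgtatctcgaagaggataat
HSP17.6C had 1 copy of the 13-base element, from 53 to 41 bases before the start, and HSP17.4 had 2, from 99 to 87 and from 18 to 6 bases before it. HSP23.5, HSP21 and HSP17.6A had a single 8-base match each. No match was found in this window for HSP17.6II, HSP18.2, HSP17.6B, HSP23.6 or HSP22. Of these only HSP18.2 lay below WT, and the others lay above WT without a match. Only perfect forms were searched, so elements with a changed letter or outside the window would be missed.

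Of the 10 genes, 5 held an 8-base form in the window, as did 16.5% of 32546 nuclear loci of the count table, and 2 held the 13-base element in either orientation, as did 0.412%. The letters TATAAA, searched on the strand of the gene, stood in 3 of the 10, in HSP17.4, HSP23.5 and HSP22, and in 31.7% of all these loci. In MIF_1 HSP17.6II, HSP23.6 and HSP22, with no match in the window, rose, while HSP17.6B and HSP18.2, also with no match, did not pass. HSP17.6C and HSP17.4, which had the long element, rose there as well. Of these genes HSP17.4, HSP23.6 and HSP22 could be tested only because they were high in the transgenic libraries. Whether heat shock elements have a part in these changes was not tested.

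**Figure D1:**
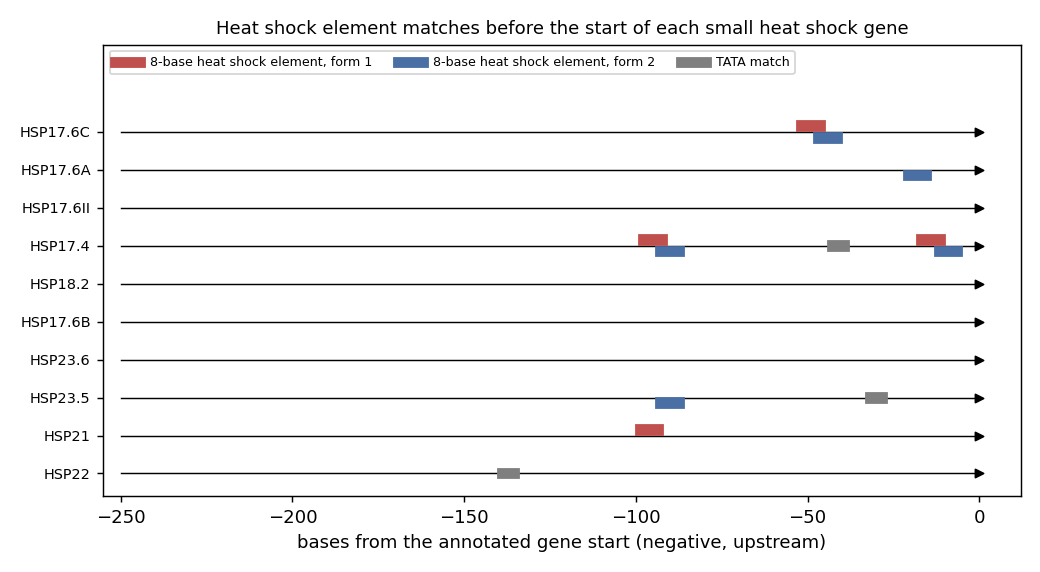
Matches to the 8-base heat shock element, in its 2 forms, and to TATAAA in the 250 bases before the annotated start of each small heat shock gene; the horizontal axis gives the distance to the start in bases and the arrowhead marks the start. The overlapping pairs in HSP17.6C and HSP17.4 are the 13-base elements, and 5 of the 10 genes have no heat shock element match in this window.

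Among the class I genes, HSP17.6C, a cytosolic chaperone that joins large oligomers, had 206 and 251 counts in MIF_1, and 85 and 231 in MIF_3, against 13 and 14 in WT. In CPM this was 8.65 and 10.4 in MIF_1, and 3.36 and 9.31 in MIF_3, against 0.652 and 0.844 in WT. All 4 transgenic libraries were above both WT libraries, and MIF_3 replicate 1 was the lowest of the 4. HSP17.6C rose in MIF_1 by a log2 fold change of 3.68 ± 0.50 (SE, 2 libraries a group; edgeR adjusted p = 0.00141), and in MIF_3 by 3.08 ± 0.51 (adjusted p = 0.00394), or by 2.17 without MIF_3 replicate 2. With bulk RNA, more cells that make a transcript and more transcript per cell cannot be told apart.

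HSP17.4, of the same class and also known from maturing seeds, had 67 and 77 counts in MIF_1, and 26 and 151 in MIF_3, against 8 and 9 in WT. The MIF_3 libraries stood on either side of those of MIF_1, and the WT libraries were below all 4. It rose by a log2 fold change of 2.67 ± 0.79 in MIF_1 (SE; edgeR adjusted p = 0.0433) and of 2.91 ± 0.78 in MIF_3 (adjusted p = 0.0369). Leaving out any 1 of the 4 libraries of that comparison ended the MIF_1 call, at an adjusted p of 0.180 and 0.128 (WT replicates 1 and 2) and of 0.138 and 0.170 (MIF_1 replicates 1 and 2). The MIF_3 call ended on leaving out either WT library (adjusted p = 0.168 for replicate 1, 0.122 for replicate 2), either MIF_1 library (0.0837 for replicate 1, 0.0836 for replicate 2) or MIF_3 replicate 2 (0.288, with a log2 fold change of 1.13). Its value was 3.69 on leaving out MIF_3 replicate 1, and fitting only MIF_3 and WT also ended the call (0.0851). Of the 10 genes HSP17.4 alone overlaps other annotated loci, the plus-strand AT3G46220 and the lncRNA AT3G07365, while HSP17.4 is on the minus strand. AT3G07365 had 0 counts in all 6 libraries. AT3G46220 had log2 fold changes of -0.06 in MIF_1 and 0.01 in MIF_3 (adjusted p = 0.773 and 0.965). The strand setting of the counting is not given in the sources used here, so reads of the overlapping strands cannot be told apart.

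HSP17.6B, a further class I gene, had 330 and 292 counts in MIF_1, and 157 and 514 in MIF_3, against 83 and 87 in WT. In CPM this was 13.9 and 12.1 in MIF_1, and 6.20 and 20.7 in MIF_3, against 4.16 and 5.24 in WT. The WT libraries were again lowest, with MIF_3 replicate 1 close above them. The log2 fold change was 1.47 ± 0.46 (SE) in MIF_1 and 1.52 ± 0.45 in MIF_3, and neither passed (edgeR adjusted p = 0.0519 and 0.0553). Both passed with upper-quartile factors (0.0461 in MIF_1 and 0.0461 in MIF_3) and with no low-count filter (0.0155 and 0.0153). In MIF_1 it also passed with organelle-encoded loci removed (0.0495), with only MIF_1 and WT fitted (6.03e-04) and on leaving out MIF_3 replicate 1 (4.56e-04) or MIF_3 replicate 2 (6.55e-04). With DESeq2 neither set passed (adjusted p = 0.136 in MIF_1 and 0.139 in MIF_3). Nor did either with a stricter low-count filter in edgeR (0.0555 and 0.0589). HSP17.6B also did not pass in MIF_1 on leaving out either WT library or either MIF_1 library, with log2 fold changes of 1.32 to 1.64. In the mean of both sets against WT it was 1.495 ± 0.41 and passed (edgeR adjusted p = 0.0325). That call ended in DESeq2 (adjusted p = 0.0641) and on leaving out either WT library (0.176 for replicate 1, 0.103 for replicate 2) or either MIF_1 library (0.0994 for replicate 1, 0.0867 for replicate 2). In MIF_3 the value was 2.14 on leaving out MIF_3 replicate 1 (adjusted p = 1.66e-04) and 0.41 on leaving out MIF_3 replicate 2 (0.382).

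HSP18.2, whose promoter is widely used as a heat-inducible driver of transgenes, lay on the other side of WT. It had 48 and 107 counts in MIF_1, and 63 and 90 in MIF_3, against 95 and 107 in WT. In CPM this was 2.02 and 4.44 in MIF_1, and 2.49 and 3.63 in MIF_3, against 4.77 and 6.45 in WT. After scaling for depth the WT libraries were the highest, by a narrow margin over MIF_1 replicate 2. Its log2 fold change was -0.79 ± 0.38 in MIF_1 (SE; 95% interval -1.65 to 0.07; edgeR adjusted p = 0.194) and -0.87 ± 0.38 in MIF_3 (-1.73 to -0.01; adjusted p = 0.174), so neither passed. In MIF_1 it was -1.47 on leaving out MIF_1 replicate 2 (adjusted p = 0.0810). Over both sets together it was -0.83 ± 0.32 and did not pass (adjusted p = 0.106), but passed on leaving out MIF_1 replicate 2 (-1.17, adjusted p = 0.0434). Its interval in each set lies below that of HSP17.6C, whose bounds were 2.56 to 4.79 in MIF_1 and 1.95 to 4.22 in MIF_3.

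The class II genes, which form cytosolic oligomers of their own, lie side by side on chromosome 5, separated by 845 bases and both on the minus strand (TAIR10.1). HSP17.6A had 168 and 252 counts in MIF_1, and 105 and 359 in MIF_3, against 15 and 4 in WT. HSP17.6II had 255 and 305 counts in MIF_1, and 92 and 257 in MIF_3, against 28 and 27 in WT. In both genes every transgenic library was above both WT libraries, and MIF_3 replicate 1 was the lowest transgenic library. HSP17.6A rose by a log2 fold change of 4.07 ± 0.68 in MIF_1 (SE; edgeR adjusted p = 0.00370) and of 4.16 ± 0.68 in MIF_3 (adjusted p = 0.00389). HSP17.6II rose by 2.95 ± 0.45 in MIF_1 (edgeR adjusted p = 0.00245) and by 2.21 ± 0.46 in MIF_3 (adjusted p = 0.0125). The WT replicates of HSP17.6A stood apart, and its log2 fold change was 5.16 in MIF_1 and 5.24 in MIF_3 on leaving out WT replicate 1. In MIF_3 it was 4.79 on leaving out MIF_3 replicate 1 and 3.00 on leaving out MIF_3 replicate 2, where HSP17.6II was at 1.27. The MIF_3 call of HSP17.6II ended on leaving out WT replicate 1 (adjusted p = 0.0771) or WT replicate 2 (0.0554).

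The mitochondrial genes were higher in both sets and had very different levels in WT. HSP23.6 had 54 and 42 counts in MIF_1, and 44 and 72 in MIF_3, against 2 and 0 in WT. The transgenic libraries were close together and far above WT. As ratios of pooled counts this was 36.6-fold in MIF_1 (exact 95% interval 9.86 to 306.7) and 42.2-fold in MIF_3 (11.4 to 352.9), where the intervals cover counting error only, and both passed the test (edgeR adjusted p = 0.00276 and 0.00246). The size of its fitted change rests on the 2 WT counts, which were both in WT replicate 1, and its call held on leaving out either WT library (adjusted p = 0.0101 and 0.0157 in MIF_1, 0.00779 and 0.0149 in MIF_3). HSP23.5 had 428 and 346 counts in MIF_1, and 224 and 322 in MIF_3, against 154 and 91 in WT. In CPM this was 18.0 and 14.4 in MIF_1, and 8.84 and 12.97 in MIF_3, against 7.73 and 5.49 in WT. MIF_1 stood apart from WT, while MIF_3 replicate 1 was only a little above WT replicate 1. HSP23.5 rose by a log2 fold change of 1.28 ± 0.24 (SE; adjusted p = 0.00609) in MIF_1, a call that ended on leaving out MIF_1 replicate 1 (adjusted p = 0.0683). In MIF_3 its value was 0.72 ± 0.24 and did not pass (adjusted p = 0.0829), but it passed on leaving out MIF_3 replicate 1 (0.97, adjusted p = 0.0367) and with no low-count filter (0.0472).

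The endoplasmic reticulum form was not counted in WT at all. HSP22 had 30 and 47 counts in MIF_1, and 12 and 31 in MIF_3, against 0 and 0 in WT. Every transgenic library thus held reads of the gene where neither WT library did. A floor of 3 counts over the WT group was 0.0821 CPM. HSP22 stood at 19.6 times this floor in MIF_1 and at 10.4 times in MIF_3. It passed the test in both sets (edgeR adjusted p = 0.00563 and 0.0164). The MIF_1 call ended on leaving out MIF_1 replicate 2 (adjusted p = 0.0501), and the MIF_3 call on leaving out WT replicate 1 (0.0674) or WT replicate 2 (0.0558). HSP21, which in chloroplasts guards the photosynthetic apparatus during heat, was the least abundant of the family in the transgenic sets. It had 3 and 3 counts in MIF_1, and 4 and 7 in MIF_3, against 0 and 0 in WT, and did not reach the low-count minimum of the test. HSP21 stood at 1.53 times the same floor in MIF_1 and at 2.67 times in MIF_3. The floor replaces the WT counts of 0 and leaves out error in the transgenic counts, so these ratios are not lower limits. With no low-count filter HSP21 did not pass (edgeR adjusted p = 0.335 in MIF_1 and 0.238 in MIF_3).

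**Figure D2:**
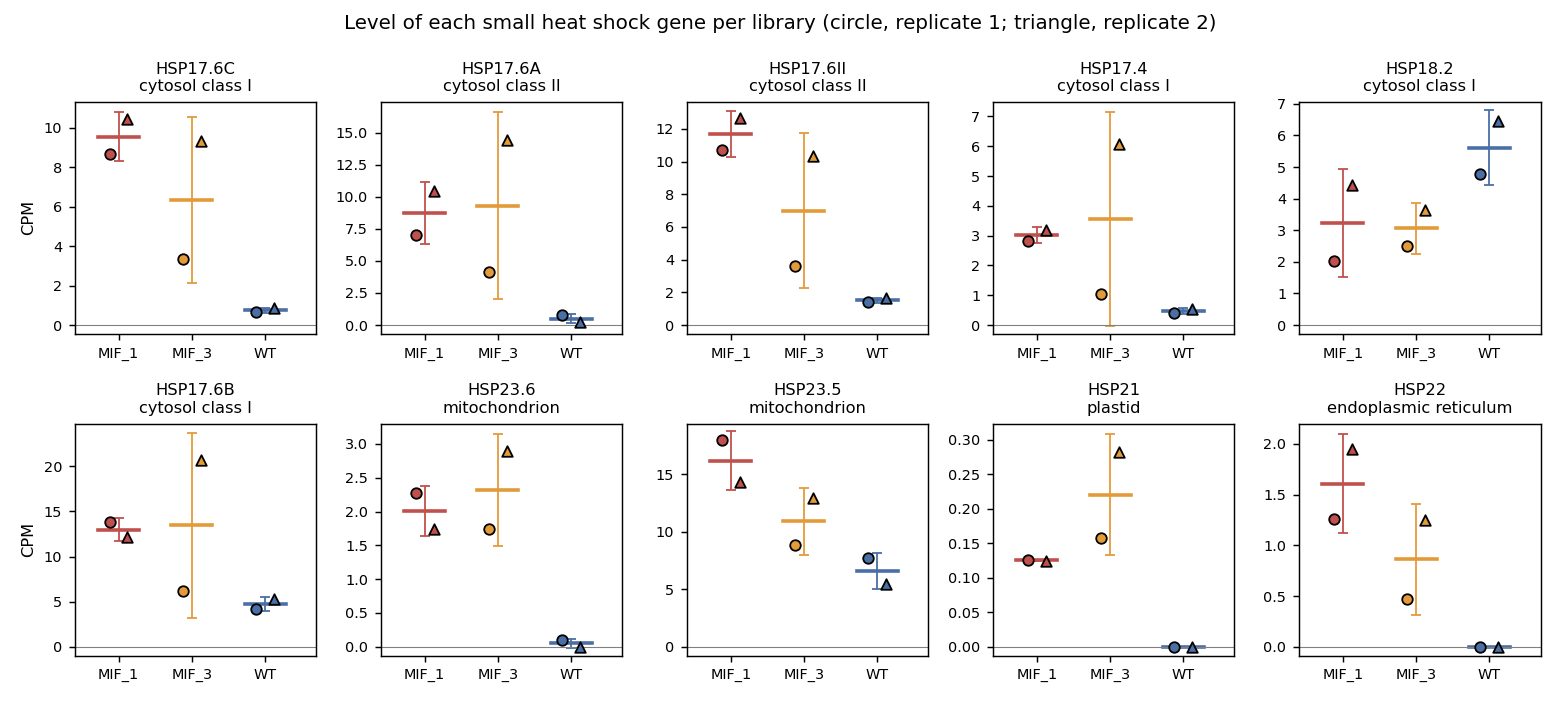
CPM of each small heat shock gene in the 6 libraries, on a linear axis from 0; circles are replicate 1, triangles replicate 2, horizontal lines the mean of a group and bars its SD (n = 2). WT lies below both transgenic sets in 9 panels and above them in that of HSP18.2, and MIF_3 replicate 2 lies above MIF_3 replicate 1 in all 10 panels.

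Counted over the family, 9 genes could be tested in each comparison. In MIF_1 7 rose, 0 fell and 2 did not pass (HSP17.6B and HSP18.2), where 7.82% of all 20438 genes tested were called higher and 9.85% lower. In MIF_3 6 rose, 0 fell and 3 did not pass (HSP17.6B, HSP18.2 and HSP23.5), where 5.84% of all genes were called higher and 7.47% lower. Leaving out either WT library lowered the MIF_3 count to 3. In the mean of both sets against WT 8 rose, 0 fell and HSP18.2 did not pass, where 7.76% of all genes were called higher and 10.9% lower, and leaving out WT replicate 2 lowered that count to 5. On the lower side, HSP18.2 had an unadjusted p below 0.05 in MIF_3 and in the mean. DESeq2 called 0 lower, and, as given above, HSP18.2 was called lower in the mean on leaving out MIF_1 replicate 2. Both sets were set against the same 2 WT libraries, so these counts are not independent of each other.

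These counts need the low-count filter beside them. HSP17.6A, HSP17.4, HSP23.6 and HSP22 reached the minimum only through the transgenic libraries, so a gene of this kind could be tested only because it was high there. The 5 genes that reached it in both WT libraries were HSP17.6C, HSP17.6II, HSP18.2, HSP17.6B and HSP23.5. Of these 5, HSP17.6C, HSP17.6II and HSP23.5 rose in MIF_1, and HSP17.6C and HSP17.6II rose in MIF_3. Their median log2 fold change was 1.47 in MIF_1 and 1.52 in MIF_3, where the median of all genes tested was 0.01 in each.

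**Figure D3:**
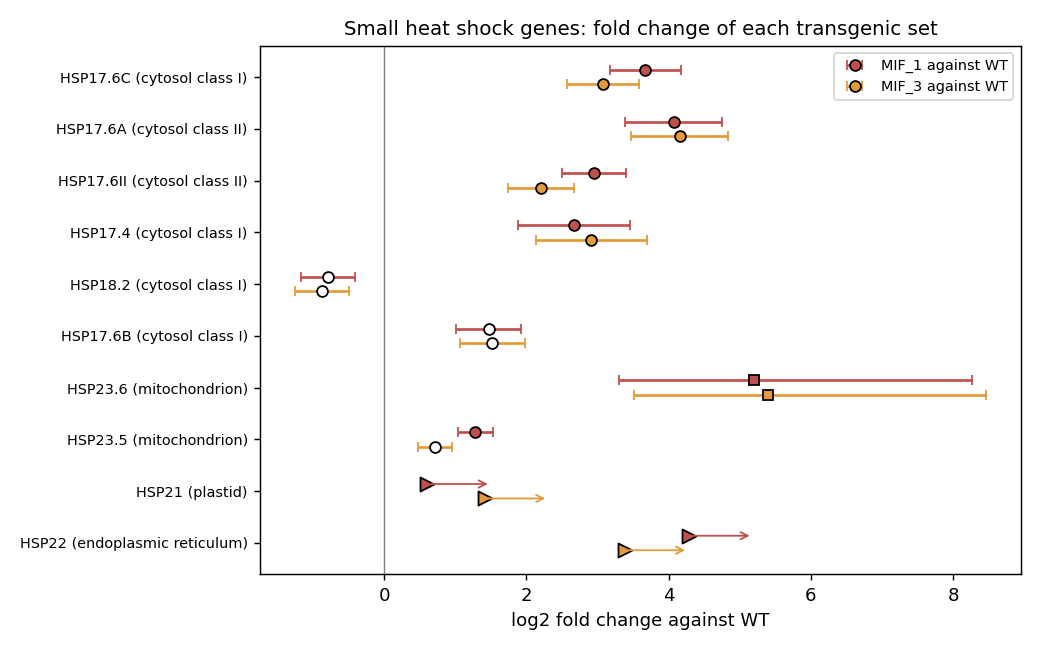
Log2 fold change against WT of each small heat shock gene in MIF_1 and MIF_3. Circles are edgeR estimates with their SE, filled where the adjusted p was below 0.05. Squares (HSP23.6) are ratios of summed counts with their exact 95% bounds. Triangles with arrows are ratios to a floor of 3 WT counts for HSP22 and for HSP21, which was not tested. HSP18.2 is the gene left of 0 in both sets.

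The compartments differed in how far their summed level moved. In CPM per kilobase, class II averaged 23.2 ± 4.30 in MIF_1 and 18.5 ± 13.7 in MIF_3, against 2.28 ± 0.231 in WT (SD, n = 2 each), which is 10.2 times WT in MIF_1 and 8.09 times in MIF_3. Class I averaged 30.4 ± 2.36 in MIF_1 and 27.8 ± 20.2 in MIF_3, against 11.7 ± 2.23 in WT, which is 2.60 times WT in MIF_1 and 2.38 times in MIF_3. The mitochondrial pair averaged 16.4 ± 2.64 in MIF_1 and 11.996 ± 3.40 in MIF_3, against 5.97 ± 1.49 in WT, which is 2.75 times WT in MIF_1 and 2.01 times in MIF_3. The class II genes thus made up 32.4% of the family's summed level in MIF_1 and 31.2% in MIF_3, against 11.5% in WT. HSP22, the endoplasmic reticulum form, averaged 1.55 ± 0.473 in MIF_1 and 0.832 ± 0.530 in MIF_3, against 0 in WT. It thus has no ratio to WT, only the 19.6 times the floor in MIF_1 and 10.4 times in MIF_3 given above. HSP21, the plastid form, averaged 0.127 ± 0.00102 in MIF_1 and 0.224 ± 0.0893 in MIF_3, against 0 in WT. A sum follows its most abundant genes, and gene by gene the compartments overlapped in MIF_1. There the log2 fold changes ran from -0.79 to 3.68 in class I and from 2.95 to 4.07 in class II. For the mitochondrial pair they ran from 1.28 to 5.07. These shares and ratios are a description, and the difference between compartments was not tested. They cover only the 10 genes followed, and the 7 further HSP20-like loci given below are not in the sums.

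The order of the genes by level per kilobase was also different. In MIF_1 the top 5 were HSP23.5 (14.5 ± 2.29 CPM per kb; SD, n = 2), HSP17.6II (13.3 ± 1.57), HSP17.6B (12.3 ± 1.16), HSP17.6C (10.6 ± 1.39) and HSP17.6A (9.93 ± 2.73), where each neighbour overlapped the next. A gap followed to HSP17.4 (4.15 ± 0.375), HSP18.2 (3.30 ± 1.76), HSP23.6 (1.91 ± 0.354) and HSP22 (1.55 ± 0.473), which again overlapped in turn, and HSP21 (0.127 ± 0.00102) was last. In HSP17.4 61.5% of the 50-base windows also lie in overlapping loci of the other strand. Its level per kilobase may thus depend on the strand setting of the counting, which is not given. In MIF_3 the replicates spread so widely that the first 8 genes, from HSP17.6B (12.7 ± 9.72) to HSP23.6 (2.21 ± 0.785), each overlapped the next. In WT HSP23.5 (5.92 ± 1.42), HSP18.2 (5.73 ± 1.22) and HSP17.6B (4.45 ± 0.724) overlapped each other in turn and stood above HSP17.6II (1.72 ± 0.179), which stood above HSP17.6C (0.830 ± 0.151), HSP17.4 (0.652 ± 0.138) and HSP17.6A (0.563 ± 0.410). By group mean HSP18.2 was in place 7 in both transgenic sets and in place 2 in WT, and each time it overlapped its neighbours.

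MIF_3 and MIF_1 were then compared with each other, which asks whether the sets differ in this family. None of the 9 genes tested passed (edgeR), where 0.475% of all genes were called higher and 1.29% lower in MIF_3. At an unadjusted p below 0.05 there was 1 gene, HSP23.5, with a log2 fold change of -0.57 ± 0.23 (SE; 95% interval -1.08 to -0.06; adjusted p = 0.255), and DESeq2 also called 0. The intervals were wide, from -1.45 to 0.26 for HSP17.6C, from -1.59 to 0.11 for HSP17.6II and from -2.28 to 0.48 for HSP22, so they hold both no difference and differences of over 2-fold. On leaving out MIF_3 replicate 2, HSP17.6C (-1.51, adjusted p = 0.0344) and HSP17.6II (-1.69, adjusted p = 0.0131) were called lower in MIF_3.

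That library stood apart from its partner throughout the family. MIF_3 replicate 2 was above MIF_3 replicate 1 in all 10 genes, as it was in 49.8% of the genes tested, and by at least 1.5-fold in 7 of the 9 tested, as in 6.38% of all. The ratio of replicate 2 to replicate 1 in MIF_3 was 5.93 for HSP17.4, 3.49 for HSP17.6A, 3.34 for HSP17.6B, 2.85 for HSP17.6II and 2.77 for HSP17.6C. It was smaller for the mitochondrial genes, 1.67 for HSP23.6 and 1.47 for HSP23.5, and was 1.46 for HSP18.2. In MIF_1 the same ratio ran from 0.769 for HSP23.6 to 2.20 for HSP18.2. Of 53 tested disaggregase, HSP70, HSP90, heat shock factor and co-chaperone genes, 29 were higher and 24 lower in MIF_3 replicate 2 than in replicate 1, and 8 were higher by at least 1.5-fold.

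**Figure D4:**
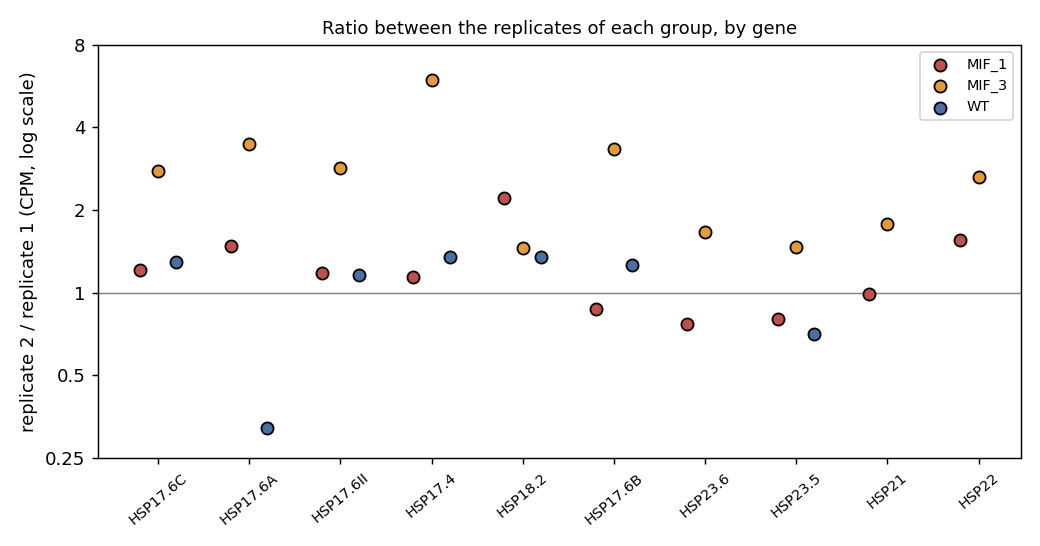
CPM of replicate 2 divided by that of replicate 1, on a log axis, for each small heat shock gene in MIF_1, MIF_3 and WT; a point at 1 means equal replicates, and ratios with a count of 0 in a replicate are not drawn. The MIF_3 points lie above 1 for every gene, up to 5.93 for HSP17.4.

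Seed transcripts were looked at because several small heat shock genes are active in maturing seeds. The summed level of 11 seed and embryo markers was 10.4 and 23.8 CPM in MIF_1, and 35.7 and 10.11 in MIF_3, against 1.61 and 0.663 in WT. In the transgenic libraries most of this sum was SESA2, to which CRA1, OLEO1 and CRU3 added in MIF_1 replicate 2. Only 2 of the 11 could be tested, of which 1 rose, the albumin gene SESA2 (log2 fold change 6.55 ± 0.81 over both sets, edgeR adjusted p = 6.21e-04). It reached the low-count minimum only through the transgenic libraries. The other, GEA6, did not pass (0.72, adjusted p = 0.651). SESA2 had 9.91 and 12.96 CPM in MIF_1, and 34.8 and 9.11 in MIF_3, against 0.201 and 0.121 in WT, so within MIF_3 it was higher in replicate 1, where the small heat shock genes were lower. Of the seed markers not tested, CRA1 had 0 and 6.06 CPM in MIF_1, and 0.355 and 0.322 in MIF_3, against 0.251 and 0.241 in WT. MIF_1 replicate 2 also held 2.74 CPM of OLEO1 and 1.12 CPM of CRU3, where MIF_1 replicate 1 had none and WT at most 0.301 CPM of OLEO1 and none of CRU3. SESA4 and EM1 went the other way in MIF_3, with 0 CPM in both libraries. In WT SESA4 had 0.401 and 0 CPM, and EM1 had 0 and 0.181. The markers SESA3 and AT3G22490 had no counts in any library, nor had HSFA9, the heat shock factor that drives small heat shock genes in seeds. The lower leaf marker sums given above moved with the sets as well, with 6 of 6 leaf markers called lower in the mean of both sets (median log2 fold change -0.66), and with 3 called lower on leaving out WT replicate 2, 4 on leaving out WT replicate 1 and 4 on leaving out MIF_1 replicate 1. Of the 6 root markers 2 rose, 0 fell and 4 did not pass in that mean (median log2 fold change 0.56), where EXPA7 rose by 1.08 (edgeR adjusted p = 0.00953) and PRP3 by 0.58 (0.0229). The count of root markers that rose was 0 on leaving out WT replicate 2, and 1 on leaving out MIF_1 replicate 2 or MIF_3 replicate 1. In the mean of both sets 7.76% of all genes were called higher and 10.9% lower. All 6 leaf markers are genes of photosynthesis, so less of those transcripts per cell and a smaller share of leaf tissue cannot be told apart. The part of seed, root or leaf tissue in the results was not tested beyond these values.

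Other members of the superfamily did not show one direction. The list held 7 further loci that RefSeq describes as HSP20-like chaperones, and all 7 were tested. In the mean of both sets 1 rose, 1 fell and 5 did not pass, with a median log2 fold change of 0.16. Over all genes 7.76% were called higher and 10.9% lower. AT4G21870 rose by 1.28 ± 0.16 (SE; edgeR adjusted p = 6.74e-04) and had 24.9 and 26.2 CPM in MIF_1, and 24.1 and 26.7 in MIF_3, against 8.48 and 12.7 in WT. The fall of AT1G54050 was lost from the list's count on leaving out WT replicate 2 or MIF_1 replicate 2. AT1G54050 fell by 0.71 ± 0.18 (adjusted p = 0.0233), with 5.55 and 4.69 CPM in MIF_1, and 5.49 and 5.64 in MIF_3, against 7.67 and 9.89 in WT. AT1G07400 had a log2 fold change of 0.91 and did not pass (adjusted p = 0.0753).

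The partner chaperones that take over substrates from small heat shock proteins mostly did not pass in the mean of both sets. The 6 lists of disaggregases, HSP70, HSP90, heat shock factors and co-chaperones held 57 loci, of which 53 were tested. In the mean of both sets 2 of these rose (3.77%) and 5 fell (9.43%), where 7.76% of all genes rose and 10.9% fell, and their median log2 fold change was -0.09. HSP101 (AT1G74310), the disaggregase that frees proteins held by small heat shock proteins, had 16.8 and 16.8 CPM in MIF_1, and 15.8 and 23.3 in MIF_3, against 18.9 and 15.2 in WT, with overlapping groups (log2 fold change 0.09, edgeR adjusted p = 0.771). HSP90.1 (AT5G52640), the heat-inducible cytosolic HSP90, had 29.7 and 30.9 CPM in MIF_1, and 24.5 and 39.5 in MIF_3, against 22.1 and 20.9 in WT, and did not pass (0.53, adjusted p = 0.0579). In MIF_1 alone 1 of 7 HSP90 genes rose, Hsp89.1 (AT3G07770; 0.36, edgeR adjusted p = 0.0396), where 7.82% of all genes rose. In MIF_3 0 of the 7 rose and 1 fell. Hsp89.1 was also called lower in MIF_3 than in MIF_1 (-0.60, edgeR adjusted p = 0.0224), where 1.29% of all genes were.

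Among 6 cytosolic HSP70 genes tested 1 rose and 1 fell. Hsp70b (AT1G16030), a heat-inducible form, rose by 1.40 ± 0.17 (SE; edgeR adjusted p = 5.63e-04) and had 17.1 and 21.3 CPM in MIF_1, and 12.4 and 15.3 in MIF_3, against 6.62 and 5.67 in WT. Hsp70-2 (AT5G02490) fell by 0.52 ± 0.13 (adjusted p = 0.0187). The list held 0 lower calls on leaving out WT replicate 1, MIF_1 replicate 1 or MIF_1 replicate 2. Over all genes 7.76% were called higher in the mean of both sets and 7.82% in MIF_1. Of 7 organelle HSP70 genes, 0 passed in the mean by edgeR (1 had an unadjusted p below 0.05, and DESeq2 called 1 higher). In MIF_1 3 rose, MTHSC70-2 (AT5G09590), the mitochondrial mtHsc70-1 (AT4G37910; 0.47, adjusted p = 0.0122) and the plastid cpHsc70-2 (AT5G49910; 0.39, adjusted p = 0.0218), and 0 were left on leaving out WT replicate 1, WT replicate 2 or MIF_1 replicate 1.

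Heat shock factors bind the elements described above. Of 18 tested, 1 rose (HSF4, AT4G36990, 0.40 ± 0.09, edgeR adjusted p = 0.0109), 3 fell and 14 did not pass, again in the average of both sets. The 1 higher call was absent on leaving out WT replicate 2, and there were 2 on leaving out MIF_3 replicate 2, while 2 factors fell on leaving out WT replicate 1. HSFA2 (AT2G26150), the factor most strongly made on heating, had 0.504 and 1.87 CPM in MIF_1, and 0.829 and 2.26 in MIF_3, against 1.91 and 2.11 in WT. Both MIF_1 libraries lay below both WT libraries, while MIF_3 overlapped WT, and HSFA2 did not pass (log2 fold change -0.57, edgeR adjusted p = 0.521). The 3 factors that fell were HSFB2A (AT5G62020) by 2.33 ± 0.13 (adjusted p = 6.72e-06), HSFC1 (AT3G24520) by 1.58 ± 0.21 (adjusted p = 8.79e-04) and HSFB2B (AT4G11660) by 1.10 ± 0.22 (adjusted p = 0.00700). By class, HSFC1 is of class C, while HSFB2A and HSFB2B are of class B, as is HSF4, the factor that rose (HSFB1 among its RefSeq synonyms). The other class B factors, HSFB3 (-0.72, adjusted p = 0.499) and HSFB4 (-0.26, adjusted p = 0.429), did not pass. HSFB2A had 6.85 and 7.02 CPM in MIF_1, and 4.38 and 5.64 in MIF_3, against 30.4 and 28.9 in WT. Of 12 co-chaperones and regulators, 0 rose and 1 fell in that average. MBF1C (AT3G24500), a co-activator of the heat response, fell by 1.38 ± 0.19 (adjusted p = 0.00110). In MIF_3 alone BAG6 (AT2G46240) rose by 0.86 ± 0.24 (edgeR adjusted p = 0.0456), and MBF1C was again called lower.

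**Figure D5:**
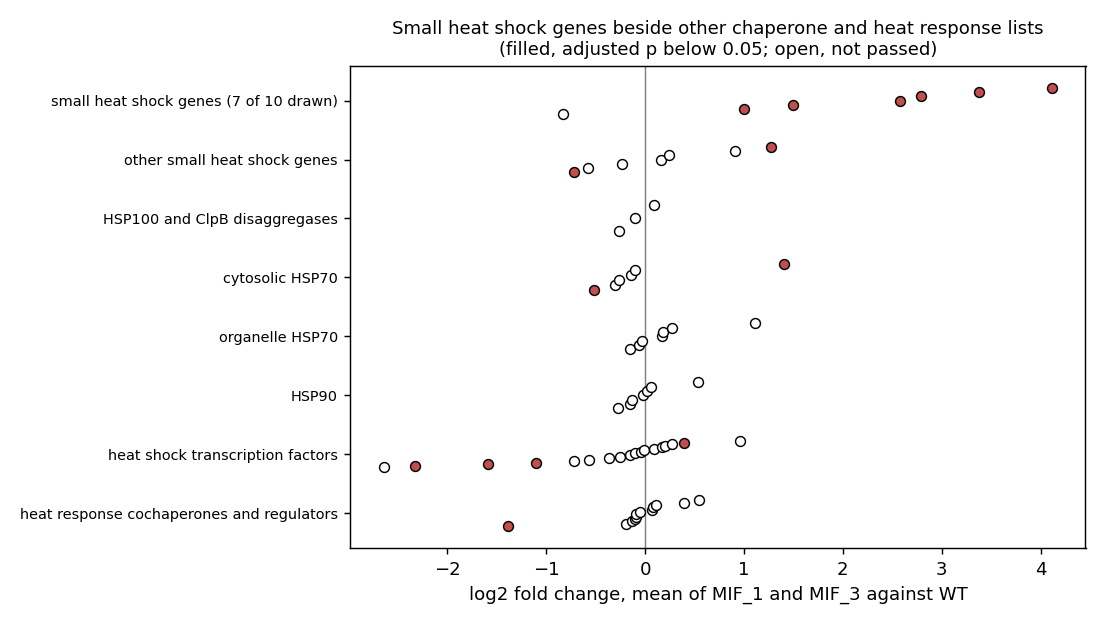
Log2 fold change of both transgenic sets, averaged, against WT for the small heat shock genes and for the tested genes of 7 other lists, 1 point a gene, filled where the edgeR adjusted p was below 0.05. HSP22 and HSP23.6, with 0 to 2 WT counts, and HSP21, not tested, are not drawn in the top line; 6 of its 7 points lie right of 0, where the other lists lie on both sides.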

How the data were processed

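Poly(A) RNA of whole seedlings was sequenced on an Illumina NovaSeq instrument (labels' protocols). The authors deposited raw read counts per locus, whole numbers without normalization. Per the submitters' processing notes, fastp, STAR and HTSeq were used with TAIR10; tool versions, annotation release, strand setting and handling of multi-mapping reads: not given in the sources used here. Groups came from the sample titles. Totals in M counts were 22.4 and 22.8 in MIF_1, 24.2 and 24.7 in MIF_3, and 21.4 and 18.3 in WT.

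Counts were tested with edgeR 4.0.16 (R 4.3.3): filterByExpr (minimum count 10, minimum total 15; 20438 of 32834 loci kept), TMM factors and a quasi-likelihood fit of all 6 libraries with 3 group means (3 residual degrees of freedom). A call needed an adjusted p (Benjamini-Hochberg, all tested genes) below 0.05. Approximate SEs were derived as |log2 fold change|/√F. The fit was first tested on simulated counts with known changes. Levels between genes were compared per kilobase of annotated exons. No 50-base window of a transcript of the 10 genes occurred in that of another locus, other than in the antisense overlaps of HSP17.4. Exact intervals cover counting error only. Floors (3 counts) replace WT counts of 0 and do not cover error in the transgenic counts. Names and sequences came from RefSeq (TAIR10.1); the count table holds no coordinates.

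The members and lists were chosen with earlier results of these data known. Text names all 10 members, up to 3 genes per list by lowest p (both sets averaged, against WT), and the 5 genes with the most similar profile. Further list members were chosen after their values were seen (HSFA2, HSFA9, HSF4, HSFB3, HSFB4, Hsp89.1, MTHSC70-2, PYK10, CRA1, OLEO1, CRU3, SESA3, SESA4, EM1 and AT3G22490). Alternatives were DESeq2 1.42.0, other scaling factors and filters, organelle loci removed, a replicate block, the compared libraries alone, stricter limits and leaving out each library.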

Additional observations from a re-analysis of the deposited data

How the results depend on the processing

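No small heat shock gene changed direction against WT under the alternatives that gave it a value. At an adjusted p below 0.01 the calls were 6 in MIF_1, 3 in MIF_3 and 5 in the mean of both sets. Leaving out each library in turn gave 5 to 8 calls in MIF_1, 3 to 8 in MIF_3, 5 to 8 in the mean and 0 to 2 in MIF_3 against MIF_1. DESeq2, RLE and upper-quartile factors, both other low-count filters, removal of organelle-encoded loci and the compared libraries alone kept each count within 1.5 times; for the mean of both sets the compared libraries are all 6, so that setting gave no value. The replicate numbers do not pair the samples by their labels, and the deviations of same-numbered libraries correlated at -0.06, -0.06 and 0.06. With the replicate block the calls were 8 higher in MIF_1, 6 in MIF_3 and 8 higher and 1 lower in the mean, where HSP18.2 passed (edgeR adjusted p = 0.0416), and HSP17.6B passed in MIF_1 (0.0390). Differences of MIF_3 against MIF_1, none of which passed, changed sign in places. With the block they were -0.060 for HSP17.6A, -0.089 for HSP17.4 and -0.12 for HSP17.6B. With a library left out they ran from -1.08 to 0.72 for HSP17.6A, from -1.55 to 1.02 for HSP17.4, from -0.54 to 0.60 for HSP18.2, from -1.07 to 0.67 for HSP17.6B and from -0.21 to 0.53 for HSP23.6. HSP21 and HSP22 are limited by depth, at 0 counts in WT. The cause of these changes was not tested.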

Other observations

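The 5 genes outside the family whose profile over the 6 libraries lay closest to the median profile of the tested small heat shock genes were named by the root mean square difference of centred log2 CPM, with a pseudocount of 0.1. It was 0.283 for BGL2 (AT3G57260), the pathogenesis-related glucanase PR2, 0.285 for AT3G54150, 0.290 for the acyltransferase gene AACT1 (AT5G61160), 0.296 for AT3G44580 and 0.313 for SAP10 (AT4G25380), a stress-associated protein. Among the family itself it ran from 0.183 for HSP17.6II to 1.64 for HSP18.2. BGL2 had 1.85 and 1.70 CPM in MIF_1, and 0.987 and 2.38 in MIF_3, against 0.351 and 0.301 in WT, and AACT1 had 3.19 and 3.99 in MIF_1, and 1.62 and 4.31 in MIF_3, against 0.602 and 0.904 in WT. Both were lower in MIF_3 replicate 1 than in the other transgenic libraries. So was the median profile by which they were chosen, and the likeness therefore follows from the choice. SAP10 and AT3G44580 had 0 counts in both WT libraries. Likeness over 6 libraries of 3 groups is a description, since genes that differ between the groups are alike by that alone.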
